A study of Mus musculus with 4 samples.

Results

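Primitive red blood cells are the first red cells of the mouse embryo. They form in the yolk sac, enter the circulation as nucleated erythroblasts while they still divide, and fill with haemoglobin as they mature in the blood. Their haemoglobin is assembled from embryonic chains, the zeta chain (Hba-x) and the epsilon-y and beta-h1 chains (Hbb-y and Hbb-bh1), together with the alpha chains (Hba-a1 and Hba-a2) that are kept in the adult. In the course of maturation the output of these cells is known to move from beta-h1 to epsilon-y and from zeta to alpha, whereas the adult beta chains (Hbb-bs and Hbb-bt) are the hallmark of the definitive red cells that come from the fetal liver.

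The cells were taken from single-cell RNA sequencing of E10.5 mouse hearts, in which each captured transcript carries a unique molecular identifier (UMI) and each droplet a barcode. Barcodes were first kept if they held no fewer than 500 genes and 1000 UMIs, with mitochondrial transcripts making up 10% of the UMIs or less. The primitive red blood cells were then chosen by their Hbb-y level, as the kept barcodes with 500 or more Hbb-y UMIs in every 10000. This rule found 2922 cells among 36148 kept and 50436 deposited barcodes. The study has 4 libraries, numbered as in their labels. Libraries 5 and 7 are controls with the genotype Tie2flfl, and libraries 6 and 8, termed Tie2-cko, have the genotype Nfatcre-Tie2flfl. All 4 therefore carry the floxed allele of Tie2, the endothelial receptor gene whose symbol is Tek, and the groups differ by a Cre driven by Nfatc1, a gene known for its activity in the endocardium. The labels do not name the Nfatc1 Cre line, while the study defines its Tie2-cko by a knock-in Nfatc1 Cre. The labels give neither the number nor the sex of the embryos behind a library, and the study's methods describe a small number of hearts per genotype from a shared litter. With 2 libraries per genotype, p-values measure only the spread between these libraries, which may be in part technical.

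The 4 libraries contributed very different numbers of cells. Library 5 held 1364 primitive red blood cells among 11079 kept barcodes, or 12.3% (exact 95% interval 11.7 to 12.9, counting error only). Library 6 held 571 of 5969, or 9.57% (8.83 to 10.3). Library 7 held 752 of 9113, or 8.25% (7.69 to 8.84). Library 8 held 235 of 9987, or 2.35% (2.06 to 2.67). The shares of the genotypes overlapped, since library 6 lay between the control libraries and library 8 alone stood far below the rest. The share was 10.3% ± 2.87 in control and 5.96% ± 5.10 in Tie2-cko libraries (SD, n = 2 each), and the difference did not hold up against this spread (exact permutation test over the 4 libraries, two-sided, p = 0.667, where 0.333 is the smallest p that 2 against 2 allows). Without library 8 the difference was -0.716 percentage points, against -4.32 with it. Without library 6 the Tie2-cko share was the 2.35% of library 8, against 10.3% in control. Without library 5 the control share was the 8.25% of library 7, against 5.96% in Tie2-cko. At an Hbb-y threshold of 250 the shares were 19.1%, 9.88%, 8.59% and 2.52% in libraries 5, 6, 7 and 8.

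**Figure D1:**
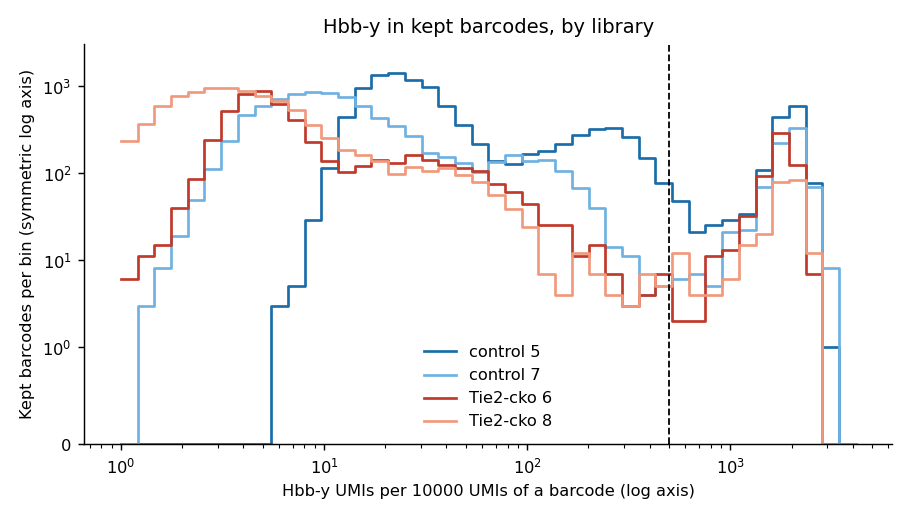
Number of kept barcodes (symmetric log axis) by their Hbb-y level in UMIs per 10000 (log axis), 1 line per library, with the threshold of 500 as a dashed line. Each library has a peak near 2000, to the right of the threshold, and library 5 has a second hump between about 100 and 500 where the other libraries hold fewer barcodes.

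The distribution of Hbb-y over the kept barcodes separated these cells from the rest in libraries 6, 7 and 8, and less cleanly in library 5. The median Hbb-y level of the chosen cells was 1930, 1756, 1968 and 1848 UMIs per 10000 in libraries 5, 6, 7 and 8. In all other kept barcodes it was 27.4, 5.62, 10.5022 and 3.61. Just inside the threshold, from 500 to 600, lay 48, 1, 5 and 9 barcodes, and just outside, from 400 to 500, lay 109, 8, 8 and 7. In library 5 the barcodes at the threshold were shallow, with a median of 1500 UMIs inside it and 1176 outside. They carried markers of other cell types at a median of 331 and 266 UMIs per 10000 non-globin UMIs. The few such barcodes of library 8 were shallow too, with 1836 UMIs inside and 2390 outside and markers at 400 and 382. Library 5 also held 1406 barcodes that reached the Hbb-y threshold but failed the filters, nearly all of them (1352) for having under 1000 UMIs, against 33, 18 and 11 such barcodes in libraries 6, 7 and 8. No barcode of a chosen cell was shared between libraries.

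The genotype labels were compared with the targeted gene before any other gene. In kept barcodes outside the red cells with a UMI of both Cdh5 and Pecam1, which are genes of endothelium, Tek reached 0.681, 0.218, 1.13 and 0.215 UMIs per 10000 in libraries 5, 6, 7 and 8. The Tie2-cko libraries were thus both lower, and some Tek RNA remained in them. The red cells themselves held next to no Tek, with 53, 2, 25 and 4 UMIs in all cells of libraries 5, 6, 7 and 8. The sex-linked genes set library 5 apart: Xist, which is expressed from the inactive X chromosome of female cells, was seen in 175 of its red cells and in 1, 0 and 0 cells of libraries 6, 7 and 8, while UMIs of the Y-linked genes Ddx3y, Eif2s3y, Uty and Kdm5d were found in 703, 369, 390 and 136 cells. In library 5 both kinds met in 65 cells. Of the 108 cells there with 3 or more Xist UMIs 29.6% held a Y-linked UMI, against 53.7% of the 1189 cells without Xist. Several of the results that changed with a library left out are therefore also given without it.

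The labelled cell type matched its markers. Hbb-y, Hba-x, Hbb-bh1 and Alas2, the enzyme that opens haem synthesis in red cells, were abundant in all 4 libraries. Since Hbb-y chose the cells, its level and those of the globins that accompany it are a description. Hbb-y (chr7:103851749-103853216, minus strand, GRCm38) made up 1796, 1758, 1893 and 1819 UMIs per 10000 in libraries 5, 6, 7 and 8. Hba-x (chr11:32276400-32278116, plus strand) followed with 1172, 1299, 1245 and 1275. Both embryonic genes together exceeded all other globins in every library. Hbb-bh1 (chr7:103841637-103843164, minus strand) reached 415, 477, 482 and 499 UMIs per 10000. The alpha genes came to 510, 556, 389 and 456 for Hba-a1 and to 196, 269, 242 and 245 for Hba-a2, though these copies are nearly identical and the division of reads between them is uncertain.

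Adult beta transcripts were present at a low level. Hbb-bt (chr7:103812524-103813996, minus strand) had 35.1, 32.7, 65.8 and 58.2 UMIs per 10000, and Hbb-bs, its near-identical neighbour, had 8.70, 8.59, 9.31 and 10.9. Libraries 7 and 8 thus carried more Hbb-bt than libraries 5 and 6, whichever the genotype. The minor genes stayed near the floor: the theta globin Hbq1b had 0.250, 0.285, 0.120 and 0.119 and the beta-like gene Hbb-bh2 at most 0.0208. The stretches of 150 bases before the starts of the embryonic gene that chose the cells and of the adult gene along which the cells are ranked further on are shown for comparison (RefSeq, GRCm38.p6, written 5′ to 3′ on the minus strand). They lie at chr7:103853217-103853366 and chr7:103813997-103814146, before the starts that both RefSeq and GENCODE annotate, so that they end 9 bases before the RefSeq start of Hbb-y and 73 bases before that of Hbb-bt. Capitals mark CACCC (the core of KLF sites), GATAA (the core of GATA sites) and CCAAT on either strand.
Hbb-y: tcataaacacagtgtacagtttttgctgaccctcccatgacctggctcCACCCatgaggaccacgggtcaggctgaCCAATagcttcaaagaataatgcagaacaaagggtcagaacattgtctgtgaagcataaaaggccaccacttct
Hbb-bt: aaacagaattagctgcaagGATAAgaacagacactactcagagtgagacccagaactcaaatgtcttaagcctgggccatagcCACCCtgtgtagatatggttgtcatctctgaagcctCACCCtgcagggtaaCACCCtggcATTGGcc

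The Hbb-y stretch holds CACCC in 1 place and CCAAT in 1, and the Hbb-bt stretch holds CACCC in 3 places, GATAA in 1 and CCAAT in 1. Among 32851 RefSeq promoters the 150 bases before the start hold CACCC in 37.4%, GATAA in 13.3% and CCAAT in 24.5%, on either strand. These matches are descriptions of letters and not of bound sites.

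**Figure D2:**
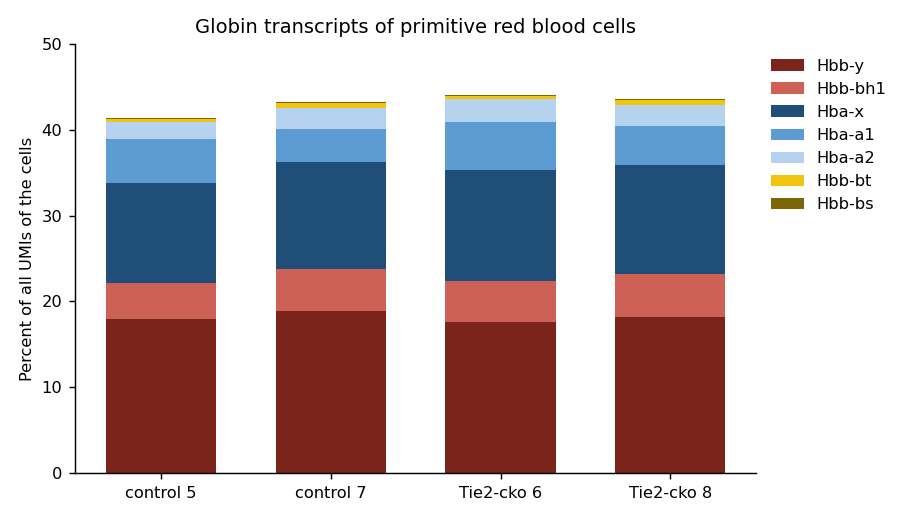
Share of all UMIs of the primitive red blood cells taken by 7 globin genes (percent, stacked bars), 1 bar per library. Globins took between 41.3% and 44.0% of the UMIs, with Hbb-y and Hba-x as the largest parts in each bar and the adult beta genes as a thin band at the top.

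The composition of globin RNA differed little between the genotypes. Because Hbb-y chose the cells, values that hold it are given with no test. Globins took 41.3% of the UMIs in library 5, 44.0% in library 6, 43.3% in library 7 and 43.6% in library 8, so that both Tie2-cko libraries lay above both control libraries (42.3% ± 1.38 against 43.8% ± 0.272; SD, n = 2 each). The difference of 1.51 percentage points was 0.540 without library 5. It was 0.810 without the mixed barcodes described further on, where library 6 lay below library 7 and the genotypes overlapped. With Hbb-y left out of both the globin UMIs and the total, the shares were 28.5%, 32.1%, 30.0% and 31.1%. The order of the genotypes was the same (exact permutation p = 0.333, two-sided, the smallest this design can give). The Hbb-bh1 share of Hbb-y plus Hbb-bh1, which is known to fall as these cells mature, was 18.7%, 21.3%, 20.3% and 21.5%. It too was higher in both Tie2-cko libraries, by 1.90 percentage points on average. The difference was smaller without library 5, with 20.3% in library 7 against a Tie2-cko mean of 21.4%. The Hba-x share of alpha-like globin was 62.4%, 61.2%, 66.4% and 64.5%, and the adult beta share of beta-like globin was 1.94%, 1.82%, 3.06% and 2.90%. For these 2 ratios the genotypes overlapped (exact permutation p = 0.667 for the Hba-x share), and libraries 5 and 6 stood on one side of libraries 7 and 8. Between neighbouring numbers, 5 and 6 or 7 and 8, which the labels do not call pairs, the Tie2-cko library was the lower one both times in these ratios and in red cell share.

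Outside the globins the cells carried genes of iron handling and redox defence at high levels. Fth1, the heavy chain of ferritin, was the most abundant gene outside globins, ribosomal proteins and mitochondrial genes, at 78.4, 82.1, 86.7 and 79.7 UMIs per 10000 in libraries 5, 6, 7 and 8, against 12.9 to 14.4 in all other kept barcodes. Mt1, a metallothionein, had 43.3, 46.6, 47.5 and 46.8. Prdx2, the peroxiredoxin of red cells, had 26.0, 27.1, 27.5 and 26.7, and Gpx1, a glutathione peroxidase, had 16.3, 18.2, 19.0 and 17.5. These 4 genes varied little from library to library.

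Among the genes of haem synthesis, Cpox had 3.66, 4.78, 3.20 and 3.07 UMIs per 10000, and Alas2 had 3.64, 4.33, 3.10 and 3.54. Alad, by contrast, stood high in library 7, with 3.33, 3.27, 5.05 and 2.99. For mitochondrial iron import, Slc25a37 (mitoferrin) had 4.24, 5.32, 5.05 and 4.52. In the membrane and skeleton list, the carbonic anhydrase Car2 had 9.16, 11.5, 12.1 and 11.3, and the anion exchanger Slc4a1 (band 3) 1.91, 2.02, 1.94 and 1.77. Each of these genes had under 0.9 UMIs per 10000 in all other kept barcodes.

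Among the erythroid factors, Hemgn, a nuclear protein of red cell precursors, had 2.10, 2.60, 2.62 and 2.53 UMIs per 10000, and Klf1, the factor that activates many red cell genes, had 1.08, 1.23, 0.980 and 0.928. The erythropoietin receptor Epor had 0.364, 0.441, 0.456 and 0.455, close to equal in libraries 6, 7 and 8. Genes of early progenitors were scarce: all 10 listed genes together came to 0.610, 0.621, 0.508 and 0.476 per 10000 non-globin UMIs, with Myc as the most abundant. Kit had 39, 9, 6 and 1 UMIs over all cells of libraries 5, 6, 7 and 8, Gata2 had 36, 9, 6 and 3, and Myb 49, 35, 0 and 0. Of the late maturation genes, Bpgm, which makes the 2,3-bisphosphoglycerate of red cells, had 2.53, 2.89, 3.16 and 3.06. The 20 listed genes together were not raised per 10000 of all UMIs, with 19.0, 18.8, 18.2 and 18.4. All other kept barcodes had 31.8, 32.3, 26.7 and 26.7. Per 10000 non-globin UMIs the sums were 32.4, 33.6, 32.2 and 32.6 against 32.0, 32.3, 26.8 and 26.8.

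**Figure D3:**
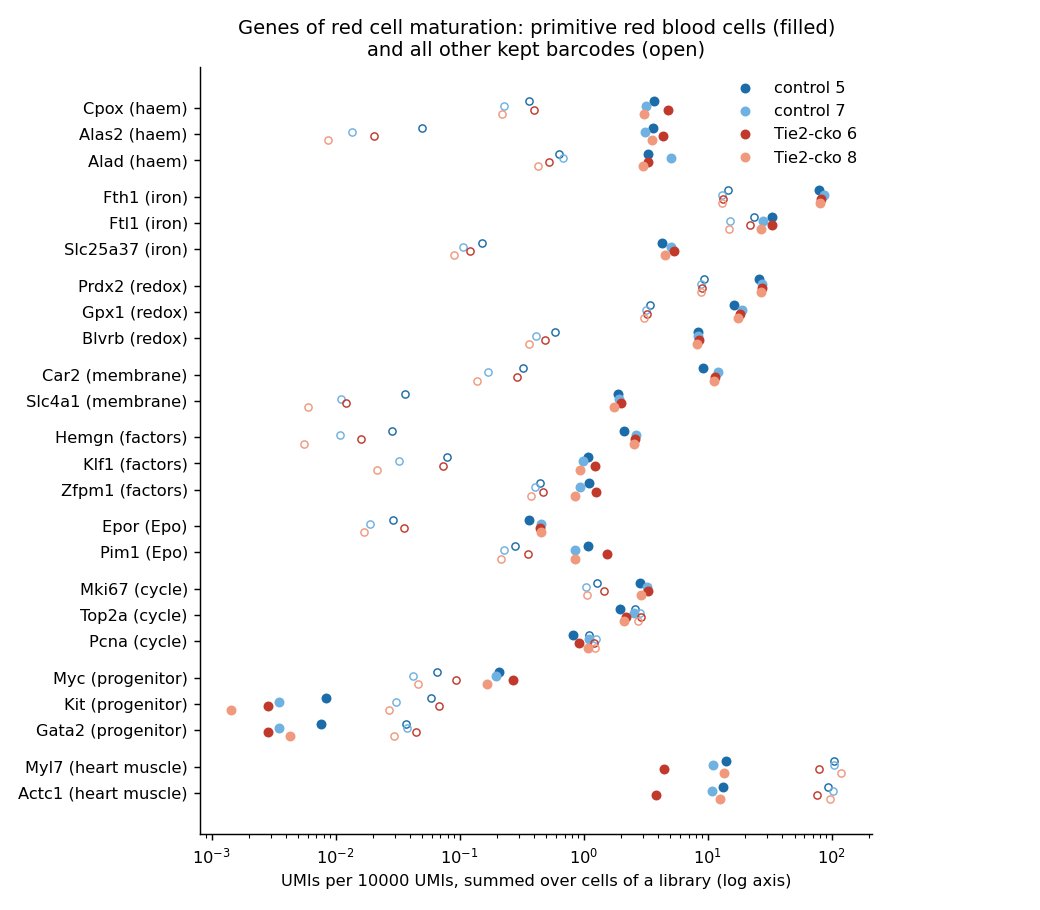
Level of genes of red cell maturation, of the cell cycle, of progenitors and of heart muscle, in UMIs per 10000 summed over the cells of a library (log axis). Filled points are the primitive red blood cells and open points all other kept barcodes, coloured by library. The haem, iron, redox, membrane and factor genes lie to the right in the red cells, Top2a and Pcna lie near their level in the other barcodes, and Kit, Gata2, Myl7 and Actc1 lie to the left.

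The comparison of cell cycle genes with the other heart cells depended on the scale, because globins fill a large part of the red cells' UMIs. The 30 listed replication genes summed to 22.4, 25.8, 26.3 and 25.4 per 10000 non-globin UMIs in the red cells of libraries 5, 6, 7 and 8, and to 20.2, 22.9, 19.3 and 18.6 in all other kept barcodes. The 30 genes of G2 and mitosis summed to 39.7, 43.3, 48.0 and 44.9, against 34.0, 37.6, 36.0 and 34.8. Both sums were thus higher in the red cells. Per 10000 of all UMIs they were lower, with 13.2, 14.4, 14.9 and 14.3 against 20.1, 22.8, 19.2 and 18.6 for replication and 23.3, 24.2, 27.2 and 25.3 against 33.8, 37.5, 35.9 and 34.8 for G2 and mitosis. Neither sum per non-globin UMI separated the genotypes (exact permutation p = 1 for both). Within the red cells, those of 40000 UMIs and more had the highest G2 and mitosis sum in each library, at 46.8, 43.9, 62.1 and 56.1 per 10000 non-globin UMIs. Below that depth there was no steady order, with 28.4, 33.8, 37.8 and 33.2 under 10000 UMIs, 33.9, 29.3, 35.6 and 34.4 from 10000 to 20000 and 29.9, 35.2, 45.99 and 33.3 from 20000 to 40000. The replication sum was 21.6, 23.7, 25.2 and 23.0 in the shallowest and 20.4, 25.8, 21.4 and 21.9 in the deepest cells. Heart muscle markers summed to 69.0, 95.3, 86.5 and 195 under 10000 UMIs, 48.0, 7.02, 49.1 and 45.8 from 10000 to 20000, 43.5, 11.1, 49.2 and 31.2 from 20000 to 40000 and 118, 27.6, 150 and 130 above, so that they were highest in the deepest cells of libraries 5 and 7 and in the shallowest of libraries 6 and 8. The part of this RNA in the G2 and mitosis sum was not tested.

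The cells were deep but of narrow content. The median cell held 33880.5, 58741, 23164.5 and 31841 UMIs in libraries 5, 6, 7 and 8, and library 6 was the deepest (exact permutation p = 0.667 for the genotypes, with the Tie2-cko library the deeper one both between 5 and 6 and between 7 and 8). The other kept barcodes had medians of 16051, 22929, 14356 and 16914, so that library 6 was the deepest and library 7 the shallowest there as well. The red cells had fewer detected genes despite their depth, with medians of 3124, 4062, 2523 and 2962 against 3738, 4649.5, 3434 and 3724.5. Thinned to 2000 UMIs each, they showed a median of 547, 551, 570 and 560.5 genes, after 31, 42, 15 and 19 shallower cells were left out, against 993 to 1016 genes in 1000 thinned other barcodes of each library. The median mitochondrial share was 1.48%, 1.26%, 1.56% and 1.47%, against 2.48% to 3.32% in the other barcodes.

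Cells of a library differed widely in globin content. From the 5th to the 95th percentile of cells, globins took 16.2% to 53.9% of UMIs in library 5, 25.2% to 52.2% in library 6, 23.7% to 54.6% in library 7 and 14.3% to 55.5% in library 8. In the tertile of cells with the least globin, the 10 heart muscle markers summed to 183, 66.3, 169 and 219 per 10000 non-globin UMIs, and in the tertile with the most to 23.9, 10.3, 29.0 and 26.2. The haem synthesis genes summed to 24.9, 36.8, 27.1 and 22.8 in the former and to 42.5, 47.3, 44.3 and 41.9 in the latter, on the same scale. In each library the cells lowest in globin thus carried the most heart muscle RNA. Barcodes in which the markers of other cell types passed 100 per 10000 non-globin UMIs numbered 134, 60, 101 and 52, or 9.82%, 10.51%, 13.4% and 22.1% of the red cells, and library 8 had the largest share of such mixed barcodes.

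The RNA of other cell types in the red cells was measured over 9 marker lists. All 10 heart muscle markers were detected in all 4 libraries and summed to 86.4, 27.2, 74.3 and 87.5 per 10000 non-globin UMIs, against 298 to 412 in the other barcodes. Their most abundant gene was Myl7, the atrial myosin light chain, with 14.1, 4.41, 11.1 and 13.5 UMIs per 10000. Without the mixed barcodes the sum was 23.7, 9.84, 28.2 and 26.8, so that library 6 remained lowest. The endothelial list came to 0.964, 0.587, 0.714 and 0.700, and the macrophage list to 0.262, 0.0236, 0.0298 and 0.0255, almost all of it in library 5. The epithelial list came to 0.753, 0.269, 0.438 and 0.359, the neural list to 0.118, 0.0979, 0.176 and 0.150, the mesenchymal list to 0.590, 0.308, 0.504 and 0.897 and the epicardial list to 0.233, 0.101, 0.277 and 0.413. The markers of megakaryocytes and platelets came to 0.168, 0.158, 0.150 and 0.117. The hepatic and endodermal list came to 1.10, 1.15, 0.00925 and 0.0866, which set libraries 5 and 6 above 7 and 8.

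The genotypes were compared over all genes on UMIs summed per library. No gene of 11627 tested passed an adjusted p of 0.05 (0 genes, 0.0%; edgeR quasi-likelihood test with Benjamini-Hochberg adjustment), DESeq2 also called 0, and 111 genes (0.955%) had an unadjusted p under 0.05 in edgeR. Both Tie2-cko libraries lay above both control libraries for 622 genes (5.35%) and below them for 1858 (16.0%). The median log2 fold change of Tie2-cko over control was 0.0033 over all genes tested. With 2 libraries per genotype, none of the 11627 genes tested thus separated the mutant from the control hearts beyond the spread between libraries. With no filter on low counts 8 genes passed, which are named further on.

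The genes of red cell function showed small differences. The 8 haem synthesis genes had a median log2 fold change of 0.26, and 3 were higher and 1 lower in both Tie2-cko libraries. Uros and Fech were among the higher and Alad was the lower one, with unadjusted p of 0.192, 0.170 and 0.218 (edgeR). The 18 erythroid factors had a median of 0.18, with 3 non-overlapping and higher (Nfe2, Zbtb7a and E2f4). The 24 tested genes of membrane and skeleton had a median of 0.11 with 3 higher, the 14 of iron and haem transport 0.08 with 1 higher, and the 10 of erythropoietin signalling 0.26 with 1 higher. Of 18 late maturation genes 5 were higher and 2 lower (median 0.14), of 30 replication genes 5 were higher and 2 lower (median 0.13), and of 30 genes of G2 and mitosis 0 were higher and 4 lower (median 0.04). Over all genes tested the shares were 5.35% higher and 16.0% lower, and no member of these lists passed the adjusted test.

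Among the globins, the log2 fold change was 0.17 ± 0.16 (SE) for Hba-x, 0.20 ± 0.17 for Hbb-bh1, 0.27 ± 0.21 for Hba-a1, 0.32 ± 0.20 for Hba-a2, 0.19 ± 0.18 for Hbb-bs and -0.09 ± 0.34 for Hbb-bt. Alas2 stood at 0.32 ± 0.21. Each of these differences was under 2 of its standard errors, and all missed the threshold (edgeR adjusted p = 1.00 for each).

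Several of the smallest p-values in the lower direction belonged to genes known from epithelium and endothelium. Epcam, an adhesion molecule of epithelia, had 0.0586, 0.00599, 0.0338 and 0.00862 UMIs per 10000 in libraries 5, 6, 7 and 8, or 274, 19, 58 and 6 UMIs. Its log2 fold change was -2.67 ± 0.42 with an adjusted p of 1.00, so it missed the threshold. Next in this direction came the tight junction genes Cldn3 (-3.42 ± 0.70) and Cldn7 (-2.62 ± 0.58), the endothelial gene Ctla2a (-2.16 ± 0.48) and Gm21887 (-2.73 ± 0.65). With no filter on low counts Epcam, Cldn3, Ctla2a and Gm21887 passed (edgeR adjusted p = 2.2e-05, 0.045, 0.011 and 0.00029), as did Xist, C1qb, C1qc and Gja4, all lower. In the other direction the genes with the smallest p were Rpl29 (0.54 ± 0.17), Mettl5os, Slc25a15, Pde1a and Zfp458, all of which missed the threshold as well. The 10 heart muscle markers had a median of -0.48, the 10 endothelial markers -0.45 and the 5 tested epithelial markers -0.91, of which 2, 3 and 4 did not overlap and were lower, against 16.0% of all genes. Heart muscle markers summed to 86.4, 27.2, 74.3 and 87.5 per 10000 non-globin UMIs in libraries 5, 6, 7 and 8, so library 6 alone was low. The other marker lists had medians of -0.04 (mesenchymal), -0.15 (epicardial), -0.02 (hepatic), -0.18 (megakaryocyte), -1.43 (neural) and -1.14 (macrophage, 1 tested gene). The part of this RNA in the comparison was not tested.

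**Figure D4:**
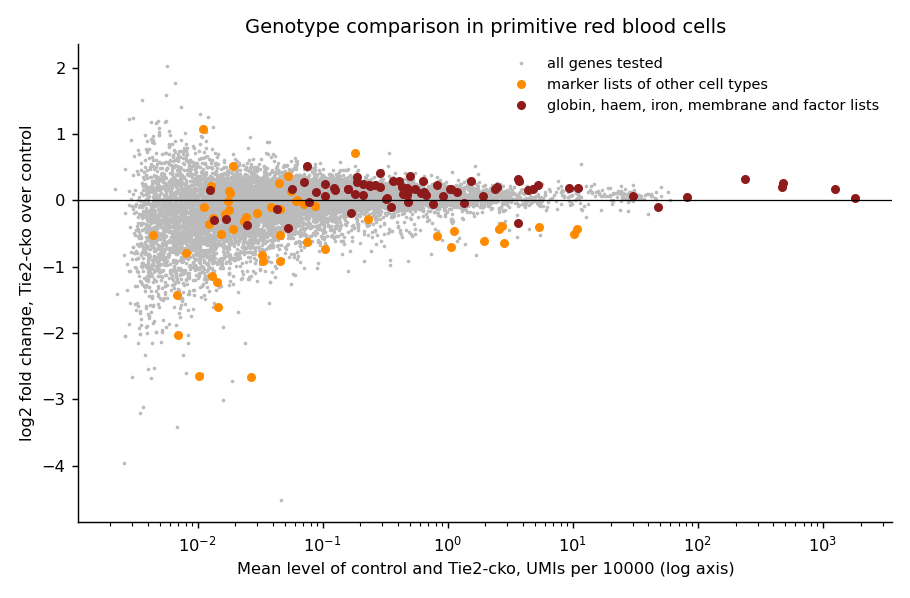
Log2 fold change of Tie2-cko over control against the mean level of each of 11627 genes in the primitive red blood cells (UMIs per 10000, log axis), with genes of red cell function and markers of other cell types coloured. The former lie close to 0 over the whole range of levels, and most markers of other cell types lie below 0.

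This count rested on library 8. Without it, library 6 stood alone against both controls, its spread taken to be that of the controls, and 431 genes were called, 7 higher (0.0557%) and 424 lower (3.37%) of 12563 tested. Of the marker lists, 10 of 10 heart muscle, 3 of 10 endothelial, 2 of 6 epithelial, 2 of 7 macrophage, 1 of 8 mesenchymal, 1 of 5 epicardial and 1 of 4 neural genes were among those lower. In this fit the median log2 fold change was -2.45 for Tek and Nfatc1, -0.80 for progenitor and -0.23 for sex-linked genes. It was -0.20 for immediate early and heat shock genes, 0.36 for haem synthesis, 0.19 for membrane and 0.35 for factor genes. Without library 7 the single gene called was Xist, which the cells of library 5 carry.

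The genotype difference in the red cells was set against that in all other kept barcodes of the same libraries. In 17082 genes tested with the library as a block, the difference was higher in the red cells for 15 genes (0.0878%) and lower for 96 (0.562%; edgeR, adjusted p under 0.05), beside a median of -0.13 over all genes. With library size in place of TMM normalisation edgeR called 0 genes (816 at an unadjusted p under 0.05). The split turned with the library left out, with 0 higher and 8 lower without library 5, 35 and 4 without library 6, 15 and 29 without library 7, and 29 and 827 without library 8. Erythroid genes stood among the 15, such as Alas2 (1.28 ± 0.25 on the log2 scale), Slc4a1 (1.31 ± 0.24) and Hemgn (1.08 ± 0.25). They are given as a description, since the Hbb-y rule placed the barcodes rich in them among the red cells and left a residue in the others. Within the red cells their log2 fold changes were 0.32, 0.07 and 0.20 and missed the threshold. In the other barcodes Alas2 had 0.050025, 0.0204, 0.0135 and 0.00874 UMIs per 10000 in libraries 5, 6, 7 and 8, where the genotypes overlapped. The number of red cells in a library and the red cell RNA in its other barcodes were highest together in library 5 and lowest together in library 8, and the part of this RNA was not tested.

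The cells also varied along the adult beta share, and this was compared within each library. Cells of at least 10000 UMIs without mixed barcodes, 1122, 482, 530 and 169 in libraries 5, 6, 7 and 8, were ranked by the share of Hbb-bs and Hbb-bt in beta-like globin and divided into tertiles. The lowest and highest tertiles held 0.469% and 3.84% adult beta in library 5, 0.411% and 3.60% in library 6, 0.821% and 5.77% in library 7, and 0.762% and 5.37% in library 8. The tertiles are ranges of a graded measure and are not named as cell types, and 109, 46, 47 and 18 cells lay within 0.1 percentage points of a boundary. The highest share in a single cell was 11.2%, 10.3%, 12.4% and 11.2%. Because the rule kept only barcodes rich in Hbb-y, this maximum cannot show whether a second cell type was present. The Hbb-bh1 share, which the ranking used in its denominator, was 19.8%, 21.96%, 21.7% and 22.9% in the lowest and 18.1%, 20.7%, 19.6% and 20.3% in the highest tertile.

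The alpha-like globins took no part in the ranking. The Hba-x share of alpha-like globin was 62.9%, 61.8%, 67.0% and 65.4% in the lowest tertile of libraries 5, 6, 7 and 8 and 61.8%, 60.9%, 65.9% and 64.0% in the highest. It was lower in the highest tertile in 4 of 4 libraries, by 1.13 ± 0.208 percentage points (mean ± SD, n = 4; exact sign-flip permutation p = 0.125, the smallest that 4 libraries allow). Hba-a1 was higher, with 530, 550, 409 and 477 UMIs per 10000 in the lowest and 562, 572, 424 and 499 in the highest tertile, a log2 difference of 0.10 ± 0.01 (edgeR with the library as a block, adjusted p = 8.5e-08). Its near-identical copy Hba-a2 went from 219, 262, 255 and 249 to 202, 276, 266 and 270, lower in library 5 alone, and missed the threshold (0.07 ± 0.02, edgeR adjusted p = 0.275). Hba-x itself missed it at 0.02 ± 0.01 (edgeR adjusted p = 0.676). Its level per 10000 UMIs was lower in the highest tertile in 3 of 4 libraries. The log2 differences, unlike the levels, include TMM scaling.

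Over 9615 genes, 29 rose (0.302%) and 9 fell (0.0936%) in the highest against the lowest tertile, and with library size in place of TMM the split was 19 and 20. These counts include Hbb-bs, Hbb-bt, Hbb-y and Hbb-bh1, which entered the ranking, and with all globins left out of the fit they were 26 and 9. Without library 6 the counts were 15 and 6, without library 7 21 and 4, and without library 8 51 and 14. The text names those that moved one way in 4 of 4 libraries at a mean of at least 0.1 UMIs per 10000, a rule set after the values were seen. Apart from the globins these were 22 genes, 15 higher and 7 lower. DESeq2 called 13 of them, 11 were called with cells split at the median and 0 with no library block. All 22 kept their sign under these settings. Hsd3b6, a steroid dehydrogenase, had 0.403, 0.448, 0.696 and 0.714 UMIs per 10000 in the lowest tertile and 0.662, 0.650, 0.971 and 0.766 in the highest, and rose by 0.58 ± 0.06 on the log2 scale (edgeR adjusted p = 5.3e-07). Library 8 showed the smallest step for this gene. Rhd, the Rhesus protein of the red cell membrane, had 0.955, 1.00, 1.09 and 1.37 in the lowest and 1.17, 1.25, 1.49 and 1.58 in the highest (0.36 ± 0.04, adjusted p = 3.4e-06). The redox genes Gpx1 (0.12 ± 0.02) and Gpx4 (0.17 ± 0.03), the mitochondrial transporter Tspo (0.26 ± 0.04), the linker histone Hist1h1b (0.26 ± 0.04), Pdzk1ip1 (0.35 ± 0.05), Ncf4 (0.30 ± 0.05) and the non-coding RNA Bc1 (0.49 ± 0.08) rose as well. So did Cd24a, Grina, Ubac1, Sec61g, Eif1 and Vcan, the last of which is a matrix gene of other heart cells.

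The genes that fell with rising adult beta were led by Cited2, a transcriptional co-regulator. It had 1.36, 1.41, 1.17 and 1.03 UMIs per 10000 in the lowest tertile of libraries 5, 6, 7 and 8 and 0.891, 1.08, 0.863 and 0.825 in the highest, a log2 difference of -0.44 ± 0.05 (edgeR adjusted p = 5.3e-07). Npm1, the nucleolar protein nucleophosmin, fell from 15.3, 16.5, 13.6 and 13.4 to 14.3, 15.0, 11.7 and 11.9 (-0.11 ± 0.02), and the RNA-binding protein gene Ybx1 by 0.12 and the spermidine synthase gene Srm by 0.18 on the log2 scale. Bpgm (-0.16 ± 0.03), Gkap1 (-0.41 ± 0.09) and mt-Atp6 (-0.08 ± 0.02) also fell. By list, 0 of 8 haem synthesis genes, 0 of 18 erythroid factors and 1 of 24 membrane genes (Rhd) passed the test. So did 0 of 30 replication genes and 0 of 30 genes of G2 and mitosis. Of 18 late maturation genes 1 was higher and 1 lower. The calls higher were 1 of 7 redox, 1 of 5 progenitor and 1 of 11 immediate early and heat shock genes. Of 13 mitochondrial genes 1 was lower. Over all genes tested the shares were 0.302% higher and 0.0936% lower. Alas2 missed the threshold (0.11 ± 0.03, edgeR adjusted p = 0.064) while being higher in 4 of 4 libraries.

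**Figure D5:**
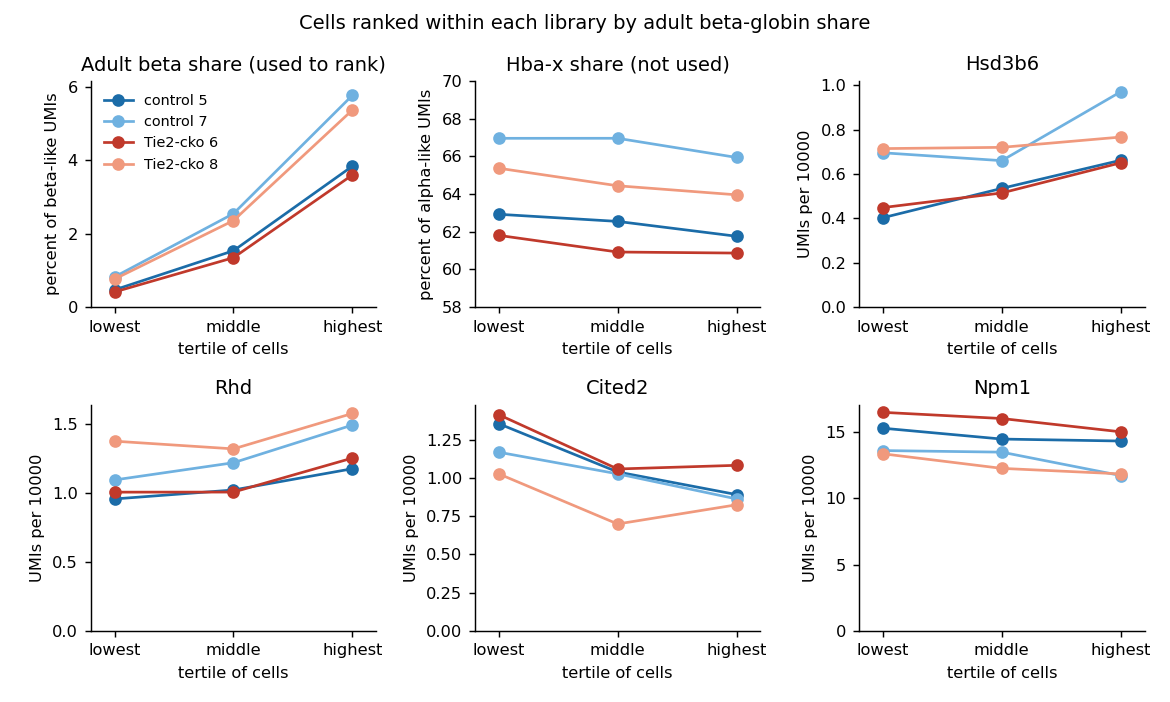
Values in the lowest, middle and highest tertile of cells by adult beta share, 1 line per library, for the ranking measure itself, the Hba-x share (axis from 58% to 70%) and 4 genes in UMIs per 10000. From the lowest to the highest tertile the lines of Hsd3b6 and Rhd rise and those of Cited2, Npm1 and the Hba-x share fall in all 4 libraries.

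The tertiles lay close to each other in the RNA of other cells, while median depth was lower in the highest tertile in 3 of 4 libraries. The globin share of UMIs was higher in the highest tertile in 4 of 4 libraries, by 1.03 ± 0.443 percentage points (mean ± SD, n = 4). Median UMIs per cell were 35682, 63873, 26951 and 36728 in the lowest and 33979.5, 64071, 26060 and 33296 in the highest tertile. All markers of other cell types summed to 25.9, 11.4, 27.5 and 28.2 per 10000 non-globin UMIs in the lowest and to 27.6, 11.4, 28.5 and 27.2 in the highest (exact sign-flip permutation p = 0.75). The replication genes summed to 1.45 ± 0.718 more per 10000 non-globin UMIs in the highest tertile, higher in 4 of 4 libraries (mean ± SD, n = 4; exact sign-flip permutation p = 0.125). Of the calls outside the named genes, several rested on few UMIs or on 2 libraries, such as Myb, which had 0 UMIs in libraries 7 and 8.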

How the data were processed

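Hearts were profiled by droplet single-cell RNA sequencing, and the authors deposited raw UMI counts made with Cell Ranger. The file headers name version 6.1.2, the methods another, and the submitters' notes name mm10. Removal of free RNA or doublets before deposit is not given in the sources used here. Library totals were 259775540, 222270938, 169361996 and 210062861 UMIs in libraries 5, 6, 7 and 8, of which the red cells held 46774253, 31744246, 17144796 and 6963712. UMI counts of the red cells were summed per library and fitted with edgeR 4.0.16 (R 4.3.3; TMM, filterByExpr, quasi-likelihood test, Benjamini-Hochberg threshold 0.05), or with DESeq2 1.42.0 as an alternative, and the standard error was taken as the absolute log2 fold change over the square root of F. Single values were compared by exact permutation of libraries. Mixed barcodes, Scrublet scores (scanpy 1.11.5; the top 0.8% per 1000 barcodes) and stricter filters entered only as alternatives, so doublets were not removed from the main set. The steps were tested on simulated data. Levels are UMIs per 10000 of all UMIs unless non-globin is stated, and UMIs count transcripts, so no length factor applies.

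The cells, the 29 gene lists and the tests were chosen with earlier results of these data known, and the comparison by adult beta share was added after the values were seen. Named genes were the 4 marker genes of the rule, every globin, Tek, Nfatc1, the 3 most abundant members of each list and any member past the threshold, up to 10 called genes a direction whose genotypes did not overlap and, with fewer than 5 calls, the 5 smallest p-values in each direction. Of the lists not described in the report, glycolysis, hypoxia, immediate early and heat shock, theta globin, redox, mitochondrial and sex-linked genes each held 0 called genes between the genotypes. Promoter letters were taken from RefSeq (GRCm38.p6) and gene positions from GENCODE M21 on GRCm38. Some genes that this rule named are not reported here.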

Additional observations from a re-analysis of the deposited data

Results flagged for a closer look

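Of 93 named genes, 20 stood out because the genotype difference in the red cells differed from that in all other kept barcodes of the same libraries (edgeR with the library as a block, adjusted p under 0.05). Over all 17082 genes tested the shares were 0.0878% higher and 0.562% lower, and with library size in place of TMM normalisation 0 genes were called. The log2 difference of the differences, red cells over other barcodes, is given for each.

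For 10 genes it was above 0. The globins had 1.71 (Hba-x), 1.73 (Hba-a1), 1.65 (Hba-a2), 1.64 (Hbb-bh1), 1.41 (Hbb-bt) and 1.59 (Hbq1b). The remaining red cell genes had 1.28 (Alas2), 1.31 (Slc4a1) and 1.08 (Hemgn). These red cell genes are low in the other barcodes by the choice of cells, so their values are a description. In the red cells none of them passed the genotype test, and in the other barcodes Hba-x had 17.0, 4.64, 6.08 and 2.59 UMIs per 10000 in libraries 5, 6, 7 and 8, on the scale on which the red cells had 1172, 1299, 1245 and 1275. Xist had 3.93, which rested on 15 UMIs in 1 red cell of library 6 and on library 5, where 841 UMIs were found.

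For 10 genes it was below 0. The epithelial genes had -3.44 (Epcam), -4.01 (Cldn3), -3.26 (Cldn7) and -1.10 (Krt18), the macrophage genes -3.87 (C1qb) and -2.46 (Fcer1g), the hepatic and endodermal genes -1.38 (Ttr) and -1.29 (Apoa2), the neuronal gene Stmn2 -2.72 and the endothelial gene Ctla2a -1.89. Each was scarce in the red cells, so these values too are a description. C1qb and Fcer1g did not enter the genotype test within the red cells. C1qb had 195, 1, 0 and 2 UMIs there and Stmn2 34, 2, 44 and 5, so that the difference in C1qb rested on library 5. Without library 5 the values of C1qb and Ttr turned to 7.21 and 7.19, neither past the test.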

How the results depend on the processing

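The genotype differences in red cell share, globin share, Hbb-bh1 share and median depth kept their direction under the other Hbb-y thresholds, cell filters and left-out libraries. Those in Hba-x share, adult beta share, detected genes and both cell cycle sums turned in sign with at least 1 library left out or 1 filter changed, within the spread between libraries. The globin share difference fell to 0.496 percentage points at an Hbb-y threshold of 1000. The count of genes called between genotypes was 8 with no filter on low counts and ranged from 0 to 431 with 1 library left out. For the difference between red cells and other barcodes the count was 0 by library size alone and 8 to 856 with 1 library left out. In the adult beta tertiles the genes higher numbered 13 with DESeq2, 104 with mixed barcodes kept, 53 with no filter on low counts, 19 by library size alone, 2 with no library block and 15 to 51 with 1 library left out. The genes lower numbered 4 with DESeq2, 4 with cells split at the median, 18, 20, 20 and 0 under the same settings in turn, and 4 to 14. Of the 22 named genes that are not globins, 13 were among the calls of DESeq2, 14 with mixed barcodes kept, 11 with cells split at the median, 12 without library 5, 13 without library 6, 12 without library 7 and 0 with no library block. A reversal was counted where both values exceeded their standard error. Hbb-y turned to -0.0265 between the tertiles with mixed barcodes kept. Between red cells and other barcodes, C1qb ranged from -5.46 to 7.21, Ttr from -1.52 to 7.19 and Col3a1 from -0.93 to 0.48 over the left-out libraries. The causes were not tested. The labels give the genotypes no shared replicate number, so no replicate block was used. The study's methods describe control and mutant libraries matched by somite stage within a litter, without numbering the matched libraries. A fit with a term for libraries 5 and 6 against 7 and 8, which the labels do not call pairs, called 0 genes between the genotypes (94 at an unadjusted p under 0.05). Library 8, with 235 cells, limits the precision of scarce genes.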

Other observations

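Some genes of the red cells followed the neighbouring library numbers rather than the genotype, a division noticed in the values and not tested. The non-coding RNA Bc1 had 0.120, 0.0895, 0.867 and 0.613 UMIs per 10000 in libraries 5, 6, 7 and 8, and all other kept barcodes had 0.353, 0.356, 2.31 and 1.44. The translation factor gene Eif1 had 14.1, 13.7, 8.002 and 8.28 in the red cells and 15.2, 14.6, 10.4 and 10.7 in the other barcodes. In both genes libraries 5 and 6 thus stood apart from libraries 7 and 8 in red cells and other cells alike. Hsd3b6, which the other barcodes hardly carried, had 0.496, 0.531, 0.780 and 0.728 in the red cells, again higher in libraries 7 and 8.

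The ribosomal protein gene Rpl29 divided the libraries by genotype in both sets of barcodes. It had 9.82, 12.4, 9.65 and 14.5 UMIs per 10000 in the red cells of libraries 5, 6, 7 and 8 and 14.9, 18.6, 14.3 and 19.9 in the other barcodes. Rpl29 was picked for its small p in the red cells, where it missed the adjusted threshold. Of all genes tested there, 5.35% had both Tie2-cko libraries above both control libraries.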
